A study of Mus musculus with 24 samples.

Results

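The Rab GTPases are the largest branch of the Ras superfamily of small GTP-binding proteins, and 43 of the 11140 genes in the deposited table carry a symbol of this family, that is Rab followed by a number and at most one letter from a to d. All 43 were taken, whatever their level. Of these, 42 passed the filter on low counts and were tested, and Rab3b was not. The RNA came from splenic B lymphoma cells, purified from mice of the C57BL/6 strain. The labels give the genotype Bcl6Tg/+, a Bcl6 transgene, for both groups. The T cell sufficient group had 12 lymphomas with no other labelled allele. For the 11 lymphomas of the T cell deficient group the labelled genotype adds CD3Epsilon-/-, the loss of a T cell receptor subunit needed for T cell development. The controls therefore carry the transgene too, and the labels used here give neither the promoter that drives it nor the age of the mice. The libraries were sequenced in 2 runs, labelled as batches, with 7 sufficient and 5 deficient libraries in run 1 and 5 and 6 in run 2.

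A Rab protein is carried to a membrane by its lipid tail, is loaded with GTP there by an exchange factor, binds effectors such as tethers and motors, and is switched off by a GTPase activating protein. Each Rab marks a step of vesicle traffic, from the endoplasmic reticulum through the Golgi to the cell surface, and from the surface through early endosomes to recycling endosomes or lysosomes. In B cells, antigen bound by the B cell receptor passes through Rab5 and Rab7 compartments on its way to loading on MHC class II.

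Total counts ran from 7.58 to 30.6 M (M, mega) per library, with means of 15.7 M ± 6.00 (SD, n = 12) for sufficient and 20.6 M ± 6.03 (SD, n = 11) for deficient lymphomas. Cd3e lay between 0 and 2.46 CPM (counts divided by the library size in M, with edgeR's trimmed-mean TMM factors) in the sufficient and between 0.721 and 5.77 CPM in the deficient lymphomas, so its RNA does not separate the labelled genotypes in these B cells, and directions rest on the labels. The 8 B cell markers summed to 4972 to 11065 CPM in the sufficient and 3480 to 8575 CPM in the deficient libraries, and 4 of the 8 were lower in the deficient group. Of 15 proliferation markers, 12 were higher in the deficient group, and their mean log2 CPM was 7.33 ± 0.493 (SD, n = 12) against 7.91 ± 0.298 (SD, n = 11). Of 13 macrophage markers with a row, 2 were called lower (Itgam and Lyz2), and all 13 had a negative log2 fold change (median -0.97). The sum of the 13 ran from 468 to 4218 CPM in the sufficient and from 520 to 1352 CPM in the deficient group. Of 8 T and NK cell markers with a row, 1 was called higher and 0 lower. The sum of these 8 ran from 18.4 to 91.3 CPM in the sufficient and from 6.83 to 40.0 CPM in the deficient group. Of 4 stroma and endothelium markers with a row, 2 were lower, and of 5 dendritic cell markers 2 were higher and 1 lower. Sufficient libraries 9, 10 and 11 held Xist beside Y-linked transcripts. In bulk RNA, fewer cells of a type and less RNA per cell cannot be told apart.

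The family as a whole took a similar share of the counts in both groups, 0.312% ± 0.0276 (SD, n = 12) of a sufficient and 0.300% ± 0.0209 (SD, n = 11) of a deficient library. Of the 42 tested genes, 3 rose and 8 fell in the T cell deficient lymphomas (edgeR, adjusted p under 0.05 over all 11020 genes). Rab8b, Rab44 and Rab23 rose, and Rab31, Rab37, Rab24, Rab8a, Rab18, Rab2b, Rab4b and Rab5b fell. The 11 called members are 26.2% of those tested, against 22.2% of all genes tested, so the family was called about as often as other genes. The share that rose was 7.14% against 10.6% of all genes, and the share that fell was 19.0% against 11.7%. The log2 fold change of deficient over sufficient was negative for 30 of 42 members, with a median of -0.19, while the median over all genes was -0.006. The median of the members was -0.09 in run 2 alone and -0.04 with the proliferation covariate. With unscaled library totals, 3 members were called higher and 4 lower, beside 1608 genes higher and 1027 lower in place of 1163 and 1285. No tested member had groups that did not overlap, and how many of all genes had such groups was not counted.

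**Figure D1:**
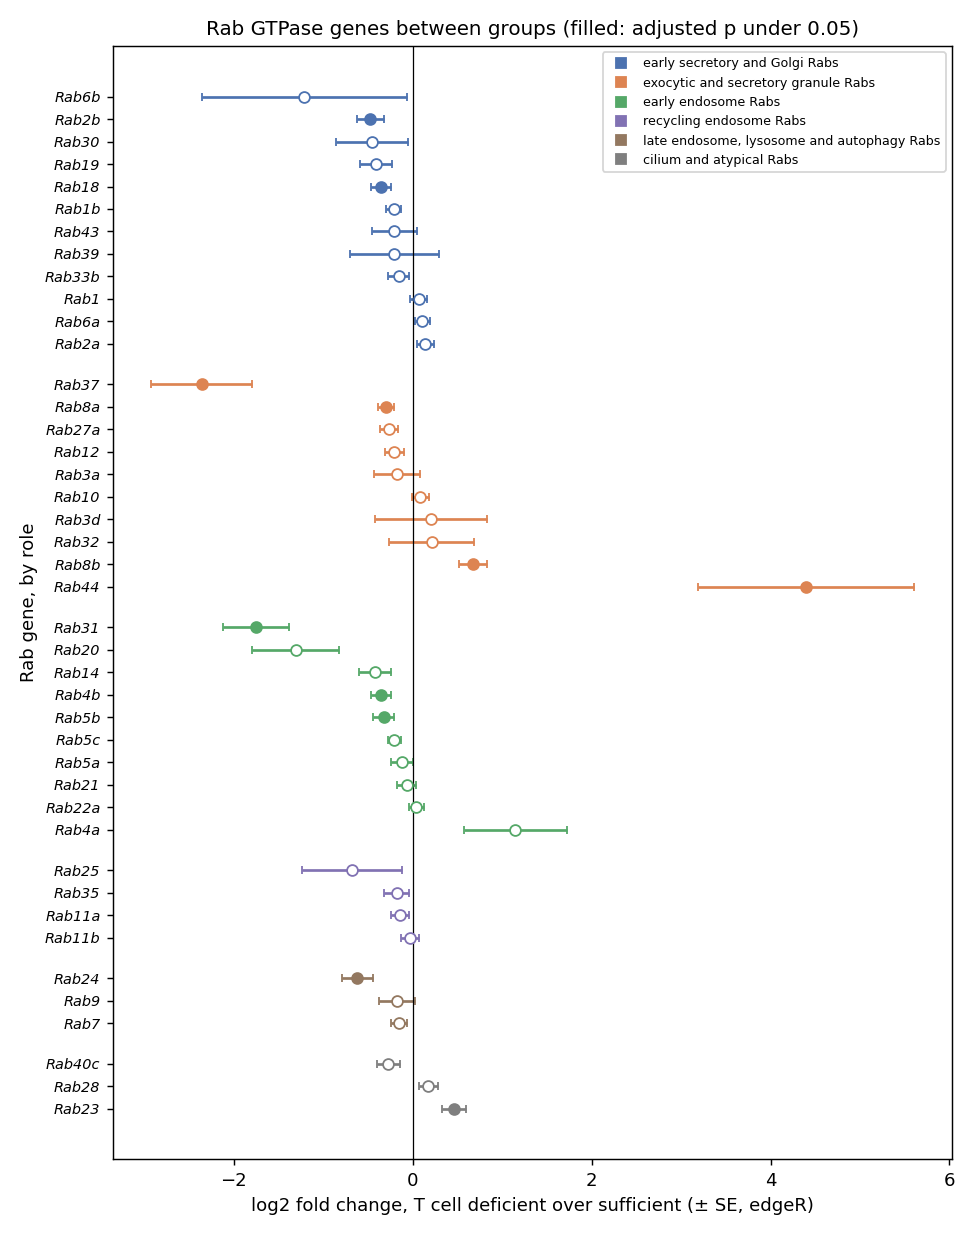
Log2 fold change of deficient over sufficient lymphomas (x axis, ± SE, edgeR) for the 42 tested Rab genes, grouped by the transport step they are known for. Filled points passed an adjusted p of 0.05, of which 3 lie above and 8 below 0, and most of the open points lie close to 0.

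All 11 called members had the same sign in both runs, and 32 of the 42 tested had. The 11 were called on both runs together, so their shared sign is no separate test. The difference between runs was not called for any member (interaction of group and run, edgeR, 0 of 42 members and 0% of all genes adjusted, 4 members and 723 genes at an unadjusted p under 0.05; with limma-voom 0 members adjusted and 3 unadjusted). Run 1 alone called 0 members and 0 genes of any kind. There 11 of 43 members and 1832 of 11064 genes had an unadjusted p under 0.05 (edgeR). Run 2 alone called 1 member higher and 5 lower, beside 629 and 730 genes. With the mean of the proliferation markers as a covariate, 0 members and 17 genes in all were called. In that fit 7 of 42 members and 1537 of 11020 genes had an unadjusted p under 0.05 (edgeR). The mean of the proliferation markers itself differed between the groups, as given above.

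The Rabs of exocytosis and secretory granules held the widest range of log2 fold changes, from -2.36 for Rab37 to 4.40 for Rab44. Both genes lay at low levels in most libraries. Of 10 tested members, 2 were called higher and 2 lower, against 10.6% and 11.7% of all genes. The small counts of the other roles are read against the same shares. Rab8a and Rab8b are close relatives that both send post-Golgi vesicles to the plasma membrane and take part in building the cilium, and they moved in opposite directions. Rab8b (chromosome 9, 66843664 to 66919687, minus strand, GRCm38) lay at 70.5, 117 and 154 CPM (lowest, median, highest) in the sufficient group and at 109, 172 and 266 CPM in the deficient group. It was above every sufficient lymphoma in 7 of 11 deficient lymphomas, and above the sufficient median in 10 of 11. The group means were 117 ± 27.8 and 183 ± 54.8 CPM (SD, n = 12 and 11). This gave a log2 fold change of 0.68 with an SE of 0.157 (edgeR adjusted p = 0.0048), split as 0.71 in run 1 and 0.64 in run 2.

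Rab8a (chromosome 8, 72161200 to 72183904, plus strand) lay at 134, 183 and 235 CPM in the sufficient and at 93.7, 128 and 195 CPM in the deficient group. In 6 of 11 deficient lymphomas it was below every sufficient one, and all 6 were the run 2 libraries. The group means were 178 ± 28.4 and 141 ± 32.2 CPM (SD, n = 12 and 11). The log2 fold change was -0.30 with an SE of 0.0886 (edgeR adjusted p = 0.0187), split as -0.15 in run 1 and -0.47 in run 2. Without the run term in the fit the value was -0.33 (adjusted p = 0.0619). The promoters of both genes, from 250 bases before to 50 bases after the start of transcription, are shown because this pair moved apart (RefSeq, GRCm38.p6, chr8:72160950-72161249 on the plus strand and chr9:66919656-66919955 on the minus strand). Capitals mark GC boxes (GGGCGG on either strand), of which Rab8b has 2, beginning 127 and 40 bases before the start, and Rab8a has 0.

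Rab8a: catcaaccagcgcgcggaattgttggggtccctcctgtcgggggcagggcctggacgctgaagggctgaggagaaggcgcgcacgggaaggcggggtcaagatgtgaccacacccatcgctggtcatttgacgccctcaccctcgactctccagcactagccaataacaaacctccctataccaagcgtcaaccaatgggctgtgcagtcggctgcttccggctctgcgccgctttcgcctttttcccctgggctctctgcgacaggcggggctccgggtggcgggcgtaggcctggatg
Rab8b: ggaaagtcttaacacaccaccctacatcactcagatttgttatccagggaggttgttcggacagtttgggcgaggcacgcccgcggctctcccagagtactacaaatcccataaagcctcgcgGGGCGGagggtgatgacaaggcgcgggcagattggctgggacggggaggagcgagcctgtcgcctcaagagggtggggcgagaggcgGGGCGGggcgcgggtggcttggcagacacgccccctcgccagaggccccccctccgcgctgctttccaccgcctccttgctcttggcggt

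A GC box stood in 75% of the 44 promoters that RefSeq gives for 37 of the members, and in 35.7% of all 32851 promoters of the same length. The E-box CACGTG stood in 13.6% against 7.15%, and TTCNNNGAA, a spacing that STAT factors and BCL6 can bind, in 6.82% against 8.30%. These are matches of letters on both strands, and neither promoter of the Rab8 pair held the E-box or TTCNNNGAA. The set of all promoters was not limited to genes with a row in the deposited table. Some members, such as Rab43 and Rab7, gave several windows that partly overlap. Whether the members differ in GC boxes from other genes expressed here was not tested.

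Rab37, a Rab of secretory granules known from mast cells and macrophages, was low in both groups and fell. It lay at 0.331, 3.60 and 9.28 CPM in the sufficient and at 0.0703, 0.418 and 1.91 CPM in the deficient lymphomas, and 9 of 12 sufficient lymphomas were above every deficient one. The group means were 3.70 ± 2.62 and 0.672 ± 0.599 CPM (SD, n = 12 and 11). This gave a log2 fold change of -2.36 with an SE of 0.562 (edgeR adjusted p = 0.00571), split as -1.53 in run 1 and -3.27 in run 2. With the mean log2 CPM of the macrophage markers as a covariate the value was -2.35, with an adjusted p of 0.0088.

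Rab44, a large member of the family known from mast cell degranulation, was near the limit of detection in the sufficient group, with 4 of 12 libraries at 0 counts, a median of 0.155 and a highest level of 1.04 CPM. In these libraries 3 counts are worth 0.103 to 0.406 CPM. It lay at 0.254, 1.26 and 131 CPM in the deficient group and exceeded every sufficient lymphoma in 9 of 11. Rab44 passed the filter on low counts mainly through these deficient libraries. It was called in the 21 fits without 1 library that tested it. The filter removed it without sufficient lymphoma 5 (1.04 CPM) or 11 (0.869 CPM), its highest sufficient libraries. The highest value came from deficient lymphoma 6 alone, and the next was 7.53 CPM. The log2 fold change was 4.40 ± 1.20 (SE, edgeR adjusted p = 0.0129) and 2.84 (adjusted p = 0.0106) without deficient lymphoma 6. It was split as 2.52 in run 1 and 6.42 in run 2, the run that holds deficient lymphoma 6. Without the 3 libraries with Xist beside Y-linked transcripts it was 3.62 (adjusted p = 0.0854), and with the macrophage covariate 3.69 (adjusted p = 0.0532).

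Of 12 mast cell and basophil markers, 2 have a row. Kit rose (log2 fold change 2.93, edgeR adjusted p = 0.00535) and Hdc had -0.35 (adjusted p = 0.667), and the markers Cpa3, Fcer1a and Ms4a2 were not analysed here. The sum of Kit and Hdc ran from 0.812 to 22.3 CPM in the sufficient and from 1.55 to 50.3 CPM in the deficient group. Deficient lymphoma 6 stood at 20.7 CPM, above the median of the sufficient (3.61 CPM) and of the deficient group (12.5 CPM). Among the sufficient libraries only lymphoma 10 (22.3 CPM) was higher, and the others reached at most 6.12 CPM. The highest sum, 50.3 CPM, belonged to deficient lymphoma 4, where Rab44 was 1.26 CPM. The 5 granulocyte markers with a row summed to 1.88 CPM in deficient lymphoma 6, the lowest of the deficient libraries. The part of other cell types in the Rab44 level was not tested further.

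The other exocytic Rabs gave no call with edgeR or limma-voom, while DESeq2 called 3 exocytic members lower in place of 2. Rab10, which carries transporters and receptors to the surface, was the most expressed member per length and differed little (358 CPM ± 76.6 SD, n = 12, against 374 CPM ± 45.4 SD, n = 11, log2 fold change 0.09 ± 0.0977 SE, edgeR adjusted p = 0.542). Rab27a, which docks lysosome-related organelles and exosome-forming bodies, missed the threshold (-0.27 ± 0.102 SE, adjusted p = 0.0633). Rab3a, Rab3d, Rab12 and Rab32 had log2 fold changes between -0.20 and 0.21. Rab3b, a synaptic relative of Rab3a, was left out by the filter. It lay at 0.0609, 1.05 and 11.6 CPM in the sufficient and at 0, 0.0848 and 2.97 CPM in the deficient group, and without the filter it had a log2 fold change of -2.27 with an SE of 1.04 (edgeR adjusted p = 0.117).

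**Figure D2:**
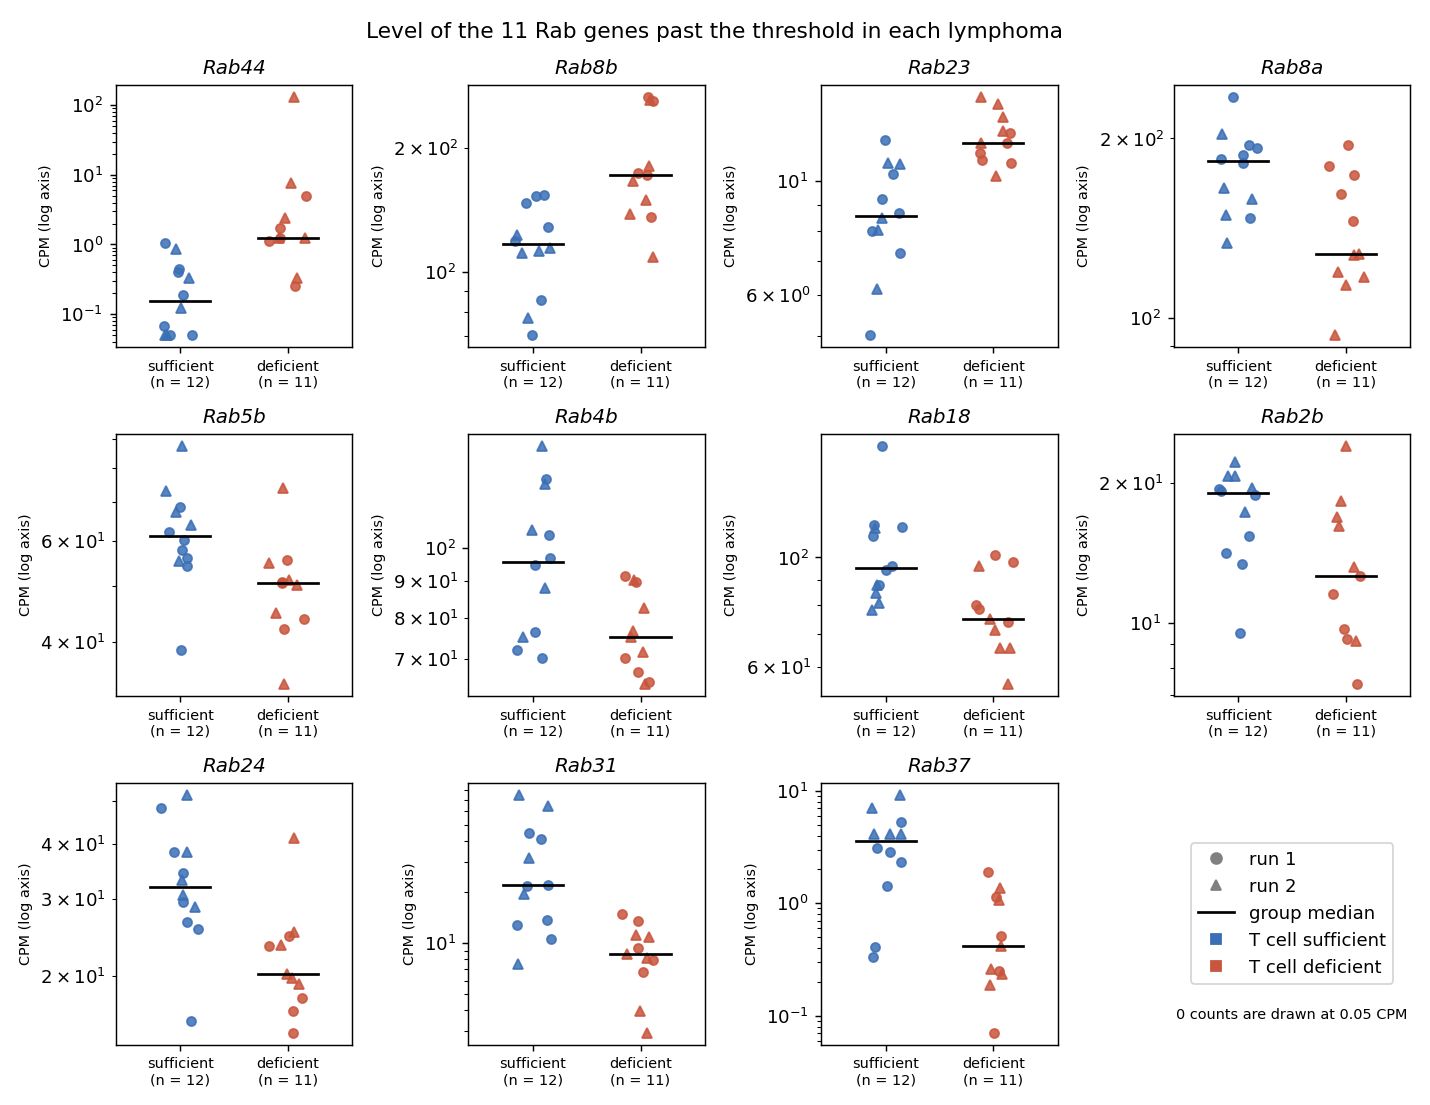
CPM (log axis) of the 11 called Rab genes in each of the 12 sufficient and 11 deficient lymphomas, with circles for run 1, triangles for run 2 and a bar at the group median. The groups overlap for every gene, and the Rab44 value of 131 CPM stands far above the other deficient lymphomas.

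Among the Rabs of early endosomes, 3 of 10 fell, beside 11.7% of all genes, and the others were not called (edgeR). With limma-voom 4 were called lower and with DESeq2 5. Rab31, which carries cargo between the trans-Golgi and endosomes and is recruited to phagosomes, had the smallest adjusted p of the family. It lay at 7.53, 21.9 and 75.2 CPM in the sufficient and at 2.94, 8.61 and 14.9 CPM in the deficient lymphomas. All 11 deficient values were below the sufficient median, and 8 of 12 sufficient values were above every deficient one. The group means were 30.4 ± 21.8 and 8.91 ± 3.61 CPM (SD, n = 12 and 11). This gave a log2 fold change of -1.75 with an SE of 0.370 (edgeR adjusted p = 0.00251), split as -1.19 in run 1 and -2.38 in run 2.

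The spread of Rab31 within the sufficient group was wide. Its 2 highest libraries, sufficient lymphomas 8 (75.2 CPM) and 10 (64.1 CPM), were also the 2 with the lowest mean log2 CPM of the proliferation markers (6.74 and 6.05, against a group median of 7.44). The next highest, sufficient lymphoma 1 (44.6 CPM), had the highest such mean of the group (7.77). With the mean of the proliferation markers as a covariate the log2 fold change of Rab31 was -0.59 (adjusted p = 0.571). With the mean log2 CPM of the macrophage markers as a covariate it was -1.62 (adjusted p = 0.00626), and -1.75 without a covariate. The highest macrophage sum, 4218 CPM in sufficient lymphoma 11, came with 31.9 CPM of Rab31. The part of proliferation or of macrophages in the Rab31 level was not tested further.

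Rab4b and Rab5b fell by smaller amounts. Rab4b, a Rab of fast recycling from early endosomes, lay at 70.3, 95.6 and 138 CPM in the sufficient and at 64.7, 75.2 and 91.3 CPM in the deficient group, with every deficient value below the sufficient median. Its log2 fold change was -0.35 ± 0.114 (SE, edgeR adjusted p = 0.0306), and the adjusted p passed 0.05, up to 0.0669, when sufficient lymphoma 7, 8 or 10 or deficient lymphoma 5 or 10 was left out. Exons of Gm21983 and Mir3101 on the same strand cover 69.4% of its exon bases, so its counts may hold reads of a neighbour. Rab5b, which drives fusion of early endosomes, lay at 38.8, 61.1 and 87.6 CPM against 33.9, 50.6 and 73.9 CPM. The log2 fold change of Rab5b was -0.32 with an SE of 0.113 (edgeR adjusted p = 0.0439). The Rab5b call held in only 7 of 23 fits that left out 1 library, those without sufficient lymphoma 2, 4, 5 or 9 or deficient lymphoma 1, 6 or 11, and its adjusted p in the others reached 0.0894.

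The other Rab5 genes stood near or beyond the threshold. Rab5c, the most expressed early endosome Rab per length, lay just outside it, at 174, 204 and 250 CPM in the sufficient and 136, 161 and 254 CPM in the deficient group (log2 fold change -0.21 ± 0.074 SE, edgeR adjusted p = 0.0502), and passed it with limma-voom (adjusted p = 0.0462) and DESeq2 (adjusted p = 0.02). In 7 of 11 deficient lymphomas Rab5c was below every sufficient one, and deficient lymphoma 9 was above every sufficient one. Without deficient lymphoma 9 its adjusted p was 0.00975. Rab5a had -0.12 (adjusted p = 0.519).

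Rab20 and Rab4a had large values that missed the threshold. Rab20, a Rab of phagosome maturation, lay at 0.396, 3.09 and 12.0 CPM against 0.409, 1.30 and 3.61 CPM (log2 fold change -1.31 ± 0.486 SE, edgeR adjusted p = 0.0566, DESeq2 adjusted p = 0.0234). Its highest value was in sufficient lymphoma 11, the library with the highest macrophage marker sum, and with the macrophage covariate the log2 fold change was -0.59 (adjusted p = 0.312). The part of macrophages in the Rab20 level was not tested further. Rab4a, the close relative of Rab4b, lay at 0.0817, 0.843 and 4.57 CPM against 0.563, 2.97 and 7.59 CPM (1.15 ± 0.577 SE, adjusted p = 0.155), and with the macrophage covariate the value was 2.03 (adjusted p = 0.0244). Rab14, Rab21 and Rab22a were not called, with log2 fold changes of -0.42, -0.07 and 0.04.

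Of the 12 Rabs of the early secretory pathway and the Golgi, 2 fell, beside 11.7% of all genes. The others were not called (edgeR). With limma-voom 1 was called lower and with DESeq2 3. Rab18, which acts at the endoplasmic reticulum and on lipid droplets, lay at 78.1, 95.2 and 169 CPM in the sufficient and at 55.3, 75.1 and 101 CPM in the deficient group, and 6 of 11 deficient values were below every sufficient one. Its log2 fold change was -0.35 ± 0.110 (SE, edgeR adjusted p = 0.0257), and without sufficient lymphoma 12 the adjusted p was 0.0536. Rab2b, a Golgi Rab, lay at 9.52, 19.1 and 22.3 CPM against 7.38, 12.6 and 24.1 CPM, and 10 of 11 deficient values were below the sufficient median although deficient lymphoma 6 was the highest library of all. The log2 fold change of Rab2b was -0.47 with an SE of 0.152 (edgeR adjusted p = 0.0294), and without deficient lymphoma 7, 8 or 10 the adjusted p reached 0.0608.

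The counts of Rab2b are less certain than those of Rab18, since exons of Tox4 and Gm43766 on the opposite strand cover 64.0% of its exon bases and the strand setting is not known. Tox4 itself differed little (log2 fold change -0.01, edgeR adjusted p = 0.942). Rab1b, which directs traffic from the endoplasmic reticulum to the Golgi and was the most expressed member of this group per length, had -0.21 ± 0.0826 (SE, edgeR adjusted p = 0.0704, DESeq2 adjusted p = 0.0413). The row named Rab1, an older symbol of Rab1a in RefSeq, had 0.07 ± 0.0995 (SE, adjusted p = 0.658) at 209 CPM ± 50.5 (SD, n = 12) against 210 CPM ± 51.3 (SD, n = 11). Rab6b, the relative of the Golgi Rab Rab6a known from neurons, had a large but uncertain value (-1.21 ± 1.14 SE, adjusted p = 0.462), with 36.1 CPM in sufficient lymphoma 6 and at most 9.24 CPM in any other library. Without sufficient lymphoma 6 its log2 fold change was -0.23. The remaining 7 members, Rab2a, Rab6a, Rab19, Rab30, Rab33b, Rab39 and Rab43, were not called, with values from -0.45 to 0.14.

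Beyond the early endosome, 1 Rab of the late endosome, lysosome and autophagy group fell. Rab24, which takes part in clearing autophagosomes, lay at 15.8, 31.9 and 51.8 CPM in the sufficient and at 14.9, 20.3 and 41.3 CPM in the deficient group, with 10 of 11 deficient values below the sufficient median. The group means were 33.4 ± 9.84 and 22.4 ± 7.11 CPM (SD, n = 12 and 11). This gave a log2 fold change of -0.62 with an SE of 0.170 (edgeR adjusted p = 0.0133), split as -0.68 in run 1 and -0.55 in run 2. Exons of Prelid1 on the opposite strand cover 62.4% of the Rab24 exon bases, and Prelid1 had a log2 fold change of -0.34 (adjusted p = 0.0977) at 243.5 against 185.1 CPM. Whether Prelid1 reads enter the Rab24 counts was not tested. Rab7, which brings endosomes to lysosomes, had -0.15 ± 0.0851 (SE, adjusted p = 0.205), and Rab9, which returns receptors from late endosomes to the Golgi, had -0.18 (adjusted p = 0.545).

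Of the 4 recycling endosome Rabs, 0 were called by edgeR, limma-voom or DESeq2, and 0 had an unadjusted p under 0.05. Rab35, which acts in fast recycling and cytokinesis, had -0.18 ± 0.139 (SE, adjusted p = 0.368), Rab11a -0.14, Rab11b -0.03 and Rab25 -0.68 ± 0.557 (SE, adjusted p = 0.394). Of the 3 Rabs of the cilium and atypical members, Rab23 rose. Rab23 is known as an inhibitor of Hedgehog signalling at the cilium. It lay at 5.02, 8.57 and 12.0 CPM in the sufficient and at 10.2, 11.9 and 14.6 CPM in the deficient group, so that all 11 deficient values were above the sufficient median and 8 of 12 sufficient values were below every deficient one. The group means were 8.74 ± 2.04 and 12.2 ± 1.38 CPM (SD, n = 12 and 11). This gave a log2 fold change of 0.47 with an SE of 0.133 (edgeR adjusted p = 0.0164), split as 0.40 in run 1 and 0.53 in run 2. Rab28 had 0.17 (adjusted p = 0.249) and Rab40c -0.27 (adjusted p = 0.125).

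Close relatives can stand in for one another, so the balance inside each pair was compared as a log2 ratio of CPM in the same library, so that the scaling between libraries enters only through the prior count. Of 12 pairs, 4 changed (permutation test within runs, two-sided, adjusted over the 12). The ratios use the same counts that called Rab8a, Rab8b, Rab2b and Rab4b above, so for their pairs they are no separate test. How often ratios of other gene pairs changed was not counted. The Rab8a over Rab8b ratio moved furthest beyond its spread. In the sufficient group its log2 value averaged 0.63 ± 0.516 (SD, n = 12), so that Rab8a was counted 1.55 times as often as Rab8b, and in the deficient group -0.35 ± 0.373 (SD, n = 11), a ratio of 0.786. In 9 of 11 deficient lymphomas the ratio was below every sufficient one. The difference was -0.96 (permutation p = 5e-05, adjusted p = 0.0006), with -0.86 in run 1 (exact permutation p = 0.0202) and -1.06 in run 2 (exact permutation p = 0.00216).

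The Rab2a over Rab2b ratio averaged 2.44 ± 0.566 (SD, n = 12) against 2.97 ± 0.575 (SD, n = 11) on the log2 scale, a difference of 0.63 (permutation test, adjusted p = 0.00522). In both groups Rab2a was the more counted gene. The Rab4a over Rab4b ratio averaged -6.48 ± 1.82 (SD, n = 12) against -4.78 ± 1.08 (SD, n = 11), a difference of 1.82 (permutation test, adjusted p = 0.0324), with Rab4b the more counted gene in every library. Run 1 gave 1.27 (exact permutation p = 0.196) and run 2 gave 2.42 (exact permutation p = 0.0216). Rab4a had only 1 or 2 counts in sufficient lymphomas 6, 8 and 12, so the prior count bears on their ratios. The Rab4 call was lost without sufficient lymphoma 6, 8, 9 or 10 or deficient lymphoma 3, 7 or 9, with differences of 1.58 to 1.81. The Rab1 over Rab1b ratio averaged 0.18 ± 0.249 (SD, n = 12) against 0.44 ± 0.253 (SD, n = 11), a difference of 0.28 that just passed (permutation test, adjusted p = 0.0497) and was lost without sufficient lymphoma 1, 2, 3, 6, 8, 9 or 10 or deficient lymphoma 3, 4, 5, 6, 7, 8 or 9, where the difference lay between 0.24 and 0.29. The pairs among Rab3a, Rab3b and Rab3d, among the Rab5 genes, of Rab6a and Rab6b and of Rab11a and Rab11b were not called, with adjusted p-values from 0.053 to 0.779.

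**Figure D3:**
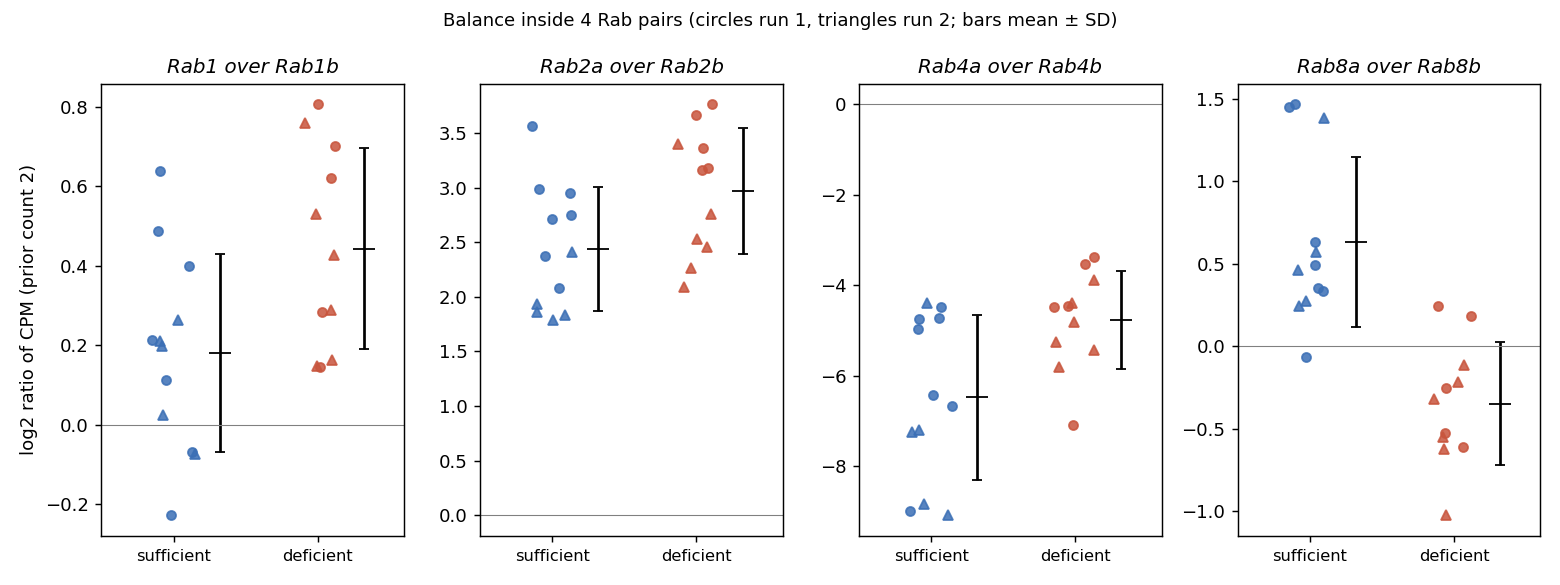
Log2 ratio of CPM of the first over the second gene (y axis) in each lymphoma for the 4 Rab pairs with a changed balance, with circles for run 1, triangles for run 2 and bars for the mean ± SD of 12 sufficient and 11 deficient lymphomas. The Rab8a over Rab8b ratio lies mostly above 0 in the sufficient and mostly below 0 in the deficient lymphomas.

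Levels were compared between genes as CPM per kilobase of exon. The length counts every annotated exon base of a gene, whether or not its transcript is expressed here. In the sufficient group Rab10 stood highest, at 101.8 CPM per kb ± 21.8 (SD, n = 12), followed by Rab5c at 93.1 ± 10.4 and Rab1b at 80.5 ± 15.1. Rab1, Rab35, Rab4b, Rab7, Rab2a, Rab8a and Rab43 followed, from 55.1 down to 36.7 CPM per kb. Exons of Gm45140 on the same strand cover 75.4% of the Rab43 exon bases, so the place of Rab43 is less certain. Neighbours in this order lay within the larger SD of the pair, apart from the step from Rab1b to Rab1. The first 5 genes made up 42.1% of the summed level of the family and the first 10 made up 66.1%. In the deficient group these 10 genes made up 65.7%, and 8 of them were again among the 10 highest, with Rab10 at 106.4 CPM per kb ± 12.9 (SD, n = 11). Rab8b was the 15th gene of the order in the sufficient and the 9th in the deficient group, at 24.6 ± 5.87 (SD, n = 12) and 38.7 ± 11.6 CPM per kb (SD, n = 11), while Rab8a went from 38.0 ± 6.07 to 30.2 ± 6.88 CPM per kb. Rab31 went from the 24th to the 33rd place.

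By role, the early secretory and Golgi Rabs made up 32.3% ± 3.93 (SD, n = 12) of the summed level per length in a sufficient and 32.4% ± 1.13 (SD, n = 11) in a deficient lymphoma. The early endosome Rabs made up 25.4% ± 3.38 against 22.9% ± 1.11, and the exocytic Rabs 20.5% ± 2.74 against 23.8% ± 1.64. The recycling Rabs stood at 10.1% ± 1.56 against 9.85% ± 0.342, and the late endosome, lysosome and autophagy Rabs at 9.95% ± 1.14 against 9.13% ± 1.31. The ranges of the groups overlapped for all 6 roles.

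**Figure D4:**
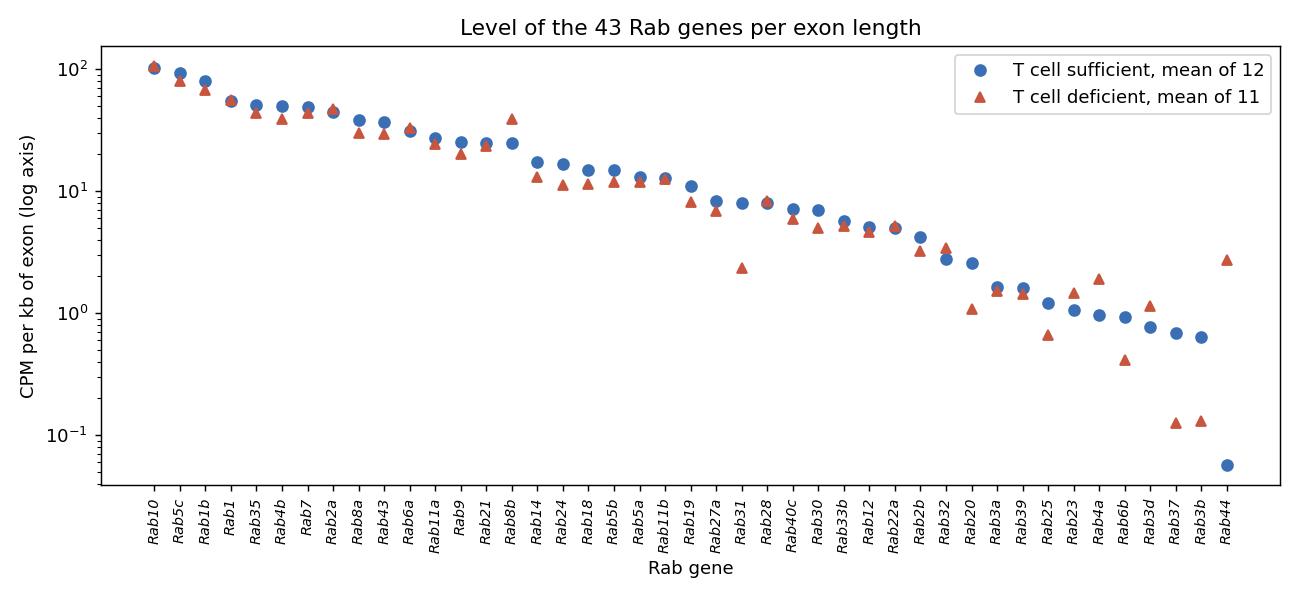
Mean CPM per kb of exon (y axis, log axis) of all 43 Rab genes in 12 sufficient (circles) and 11 deficient lymphomas (triangles), in the order of the sufficient group. Most pairs of points lie close together, and Rab31, Rab37, Rab3b and Rab44 stand apart between the groups.

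The proteins that prenylate, recycle, switch on, switch off and read the Rabs were taken as 5 further lists. Of 15 genes of prenylation and membrane cycling, 2 fell with edgeR and limma-voom and 3 with DESeq2. Rabac1, which helps release Rabs from their inhibitor GDI at the membrane, fell from 60.7 CPM ± 27.7 (SD, n = 12) to 35.6 CPM ± 9.83 (SD, n = 11; log2 fold change -0.72 ± 0.180 SE, edgeR adjusted p = 0.00814), and Yipf3 fell with -0.40 (adjusted p = 0.00889). Of 46 exchange factors with a row, 2 rose and 6 fell. On the log2 scale St5, a DENN domain protein, fell by 2.70 (edgeR adjusted p = 0.00224), and Trappc5, a TRAPP complex subunit, by 0.45 (adjusted p = 0.00417). Dennd4a and Dennd4c, exchange factors for Rab10, rose by 0.64 (adjusted p = 0.00662) and 0.49 (adjusted p = 0.0135).

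Of 38 GTPase activating proteins, 3 rose and 8 fell, with a median log2 fold change of -0.02. Sgsm2 fell by 1.16 (edgeR adjusted p = 0.00118), Tbc1d14, which acts in autophagy, by 0.60 (adjusted p = 0.00348) and Tbc1d10c by 0.81 (adjusted p = 0.00383), while Tbc1d16 rose by 1.81 (adjusted p = 0.00601). Of 51 effectors tested, 7 rose and 4 fell, with a median of 0.03. Rufy2 rose by 0.93 (adjusted p = 0.000743), and Eea1, the Rab5 effector that tethers early endosomes, rose by 0.71 (adjusted p = 0.0027) from 57.8 CPM ± 13.5 (SD, n = 12) to 101 CPM ± 32.1 (SD, n = 11), above every sufficient lymphoma in 8 of 11. Vps41, a subunit of the HOPS tether that works with Rab7, fell by 0.48 (adjusted p = 0.00194), and was below every sufficient lymphoma in 9 of 11. Rilpl1, known as a binder of phosphorylated Rab8 and Rab10, fell by 1.87 (adjusted p = 0.00577). Of 5 Rab-like genes, 0 were called by edgeR (1 at an unadjusted p under 0.05) and 1 by limma-voom. The medians of the 5 lists lay between -0.16 and 0.03, against -0.006 for all genes. The shares called in the 4 main lists, like that of the members, are read against 22.2% of all genes.

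The authors' deposited table gives an adjusted p under 0.05 for 10 members and for 2535 genes in all. Of those 10, 9 were also called here. Rab2b (0.0566) and Rab44 (0.0694) were called here and not in the authors' deposited table, and Rab5c (0.047) was called in the authors' deposited table and not here. The sign was the same for 41 of the 42 tested members.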

How the data were processed

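Members are the rows whose symbol is Rab, a number and at most one letter from a to d. The members, their roles and the lists of regulators and markers were chosen with earlier results of these data known. The rule for named members took every called member, the highest per length in each role, the 3 largest uncalled changes and the pairs with a changed balance. In the other lists it took up to 4 called genes with the smallest p.

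The authors deposited raw counts for 23 libraries, and CPM that equal each count over its library total within 5e-04. The authors also deposited their own log2 fold changes with p-values, adjusted p-values and mean log2 levels. The submitters' processing notes name limma and the builds mm10 and GRCm38. Neither the aligner nor the counter, annotation or strand setting was given in the sources used here. Reads shared by overlapping genes or copies may therefore be counted for either. Exons of 18 members overlap another gene, and 24 members share a stretch of 50 bases with another gene's transcript, 9 of them over more than 10% of such stretches. The column of sufficient lymphoma 4 was matched by its number, since its suffix differs from the label. A repeat library of sufficient lymphoma 1 is not analysed here as its own column, and whether that lymphoma's column holds 1 or both libraries is not given. Each sample is labelled as a separate lymphoma.

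Counts were tested with edgeR 4.0.16 (R 4.3.3), quasi-likelihood with TMM scaling and terms for run and group. The filter filterByExpr removed 120 genes and left 11020. A call is a Benjamini-Hochberg adjusted p under 0.05, and the SE is the log2 fold change over the square root of F. Printed CPM include the TMM factors. Ratios of pairs used log2 CPM with a prior count of 2 and 100000 relabellings within runs, or every split within 1 run. Coordinates, exon lengths and overlaps are from GENCODE M21 (GRCm38), which holds 42 members by symbol, with Rab1 placed through Rab1a. Alternatives used DESeq2 1.42.0 and limma 3.58.1. On simulated counts for the comparison of the groups, with 10997 genes tested, the fit called 41.8% of true changes of 1.5-fold, 71.6% at 2-fold and 90.9% at 4-fold, with 9 false calls. The floor of 3 counts lay between 0.102 and 0.406 CPM and covers only the error of counting.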

Additional observations from a re-analysis of the deposited data

How the results depend on the processing

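The 3 members higher and 8 lower, beside 1163 genes higher and 1285 lower, shifted with the setting. Unscaled library totals gave 3 and 4 members, with 1608 genes higher and 1027 lower. A threshold of 0.01 gave 1 and 2 members (465 and 562 genes), and one of 0.10 gave 3 and 13 members (1660 and 1754 genes). Without the run term 3 members were higher and 5 lower (786 and 967 genes). Run 1 alone gave 0 and 0 members and 0 and 0 genes. Run 2 alone gave 1 and 5 members (629 and 730 genes). The proliferation covariate gave 0 and 0 members (3 and 14 genes). Without the 3 libraries with Xist and Y-linked transcripts, 653 and 817 genes were called. Leaving out 1 library gave 2 to 3 higher and 5 to 11 lower members.

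DESeq2 called 2 members higher and 12 lower, beside 1508 genes higher and 1584 lower, and gave no adjusted p for Rab44. Among the named members, signs turned with the proliferation covariate for Rab5b (0.0144), Rab10 (-0.0343) and Rab1 (-0.0807), in run 2 for Rab7 (0.0293) and Rab6b (0.78), and in run 1 for Rab28 (-0.0584), none of them called there. Of the 12 pairs, 4 had a changed balance, against 0 in run 1 alone, 1 in run 2 alone and 2 to 5 when 1 library was left out. With the replicate block the fit gave 2 members higher and 6 lower, beside 893 genes higher and 931 lower. Rab23 (edgeR adjusted p = 0.0665), Rab4b (0.126) and Rab5b (0.0796) did not pass there. The numbers in the titles were not taken to pair animals across genotypes, so the main fit had no replicate block. Same-numbered libraries correlated from -0.277 to 0.29, over 0.1 in 6 of 11 pairs. Changes under 1.5-fold are often missed at this depth and number of lymphomas.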

Other observations

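Single lymphomas stood apart for some members that were not called. Rab30 lay at 10.1, 5.32 and 4.95 CPM in deficient lymphomas 1, 2 and 10, against 33.9 to 108 CPM in the other deficient and 40.9 to 107 CPM in the sufficient lymphomas. Rab14 reached 588 CPM in sufficient lymphoma 10, against at most 334 CPM elsewhere. Rab35 reached 308 CPM in sufficient lymphoma 7, against at most 177 CPM elsewhere. Rab3d, a Rab of secretory granules, reached 32.7 CPM in deficient lymphoma 6, the library with 131 CPM of Rab44, and was at most 11.9 CPM elsewhere. These genes were picked after their values were seen, and no cause was tested.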
